A study of Mus musculus with 16 samples.

Results

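Peroxisomal beta-oxidation around the enzyme MFP2 was followed in kidneys of mice labelled MFP2-/-. The set was 8 genes of this pathway, taken as every array probe whose platform annotation carries one of their symbols, and each probe was kept on its own. It held 8 probes of 7 genes, out of 20355 probes and 9930 named genes on the array: 1 probe each for Slc27a2, Abcd3, Acaa1a, Acaa1b, Scp2 and Eci3, and 2 probes for Hsd17b4, the gene of MFP2. Ehhadh, the gene of the other multifunctional protein, was not analysed here.

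The samples were kidneys of 4 males labelled MFP2-/- at 15 weeks of age, each set on two-channel cDNA arrays against a single pool made from 5 wild-type males of the same age, of the Swiss strain SWR/Ola Hsd. The labels give no strain background, allele or deleted exon for the mutants, so genotype and strain background cannot be told apart. Each mouse had 4 arrays, 2 for each way of dyeing the mutant and the pool with Cy5 and Cy3, or 16 arrays in all, and 19737 to 20228 probes had a value on an array. The 4 arrays of mouse 2 had the fewest, 19737 to 19816, against 19939 to 20228 on the others. Arrays of 1 mouse hold the same RNA and were averaged to n = 4 mice, and the pool is 1 control sample without a spread of its own. Precision is limited by how few arrays and mice there are. The files hold ratios and no levels, so kidney markers could not be used to check the tissue, and fewer cells of a type cannot be told apart from less RNA per cell.

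Peroxisomes shorten very long chain, branched and bile acid side chains that mitochondria handle poorly. A fatty acid is activated to its CoA ester, carried across the membrane by a half-transporter of the ABCD family, oxidised by an acyl-CoA oxidase, hydrated and dehydrogenated by a multifunctional protein, and cleaved by a thiolase. MFP2, also called D-bifunctional protein, serves the branched and very long chain substrates, while the enzyme encoded by Ehhadh serves straight-chain and dicarboxylic acids. In the kidney, peroxisomes are most abundant in the proximal tubule, and many of these genes are known targets of the nuclear receptor PPAR alpha.

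All ratios are on the log2 scale with each array's median set to 0, so a value above 0 is higher in the mutant mouse than in the pool. Neither that direction nor the log base is stated, and both are taken as likely. In the labels the mutant is channel 1 throughout, and the ratios are read as channel 1 over channel 2. In mice 1 and 2 each of the 8 arrays put Hsd17b4 probe 4590 below 0, with 4 arrays of each dye orientation. Slc27a2 was above 0 on all 16 arrays, 8 of each orientation. In a ratio left as Cy5 over Cy3, a difference between mutant and pool would turn with the dyes. A dye bias of the probe itself would keep its sign there, so Slc27a2 alone does not settle the direction.

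Other values turned with the dyes. Over all probes, arrays of 1 mouse in the same orientation had a median Spearman rho of 0.338 (8 pairs), and those in opposite orientation -0.157 (16 pairs). The 292 spots of absolute size over 10, which were left out as floor values, on the 8 arrays with the mutant in Cy5 were all positive, and the 218 on the 8 arrays with it in Cy3 were all negative. The channel at the floor would always be Cy3 in ratios of mutant over pool, and always the pool's in ratios of Cy5 over Cy3. Read as Cy5 over Cy3, the member means would lie between -0.07 and 0.19, with 0.02 for probe 4590 and 0.03 for Slc27a2. With the direction turned round on all arrays, every value above 0 would mean lower in the mutant.

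The targeted gene came first, as the check of the labels. Hsd17b4 probe 4590 lay far below the pool in mice 1 and 2 and near it in mice 3 and 4. Its ratios were -1.69, -1.50, -0.10 and -0.34 in mice 1 to 4, a mean of -0.91 ± 0.80 (SD, n = 4), or 0.533 times the pool with a 95% interval of 0.326 to 0.873. All 8 arrays of mice 1 and 2 lay below -1, between -2.08 and -1.10, in both dye orientations. The 4 arrays of mouse 3 lay between -0.23 and 0.07, and those of mouse 4 spread from -1.15 to 0.47, 1 of them below -1. The arrays of mice 1 and 2 and those of mice 3 and 4 thus overlapped through a single array of mouse 4.

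Hsd17b4 probe 1446 gave the opposite picture. Its ratios were 0.02, 0.83, 0.34 and 0.52 in mice 1 to 4, a mean of 0.43 ± 0.34 (SD, n = 4), or 1.34 times the pool (95% interval 1.07 to 1.68). Over its 16 arrays the lowest value was -0.46, the median 0.47 and the highest 0.99, and 13 arrays were above 0. No array of this probe fell below -1 in any mouse. Mouse 2, in which probe 4590 was strongly negative, had the highest value of probe 1446.

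Within each mouse, probe 1446 exceeded probe 4590 by 1.71, 2.32, 0.44 and 0.86 in mice 1 to 4, a mean difference of 1.33 ± 0.85 (SD, n = 4). An exact two-sided sign-flip permutation test gave p = 0.125, which is the smallest p that 4 mice allow. Among 2168 genes with 2 probes tested, the median absolute difference between the probes' means was 0.11. A difference at least as large as that of Hsd17b4 was found in 5 genes, or 0.231%, with Hsd17b4 itself counted among them. Both probes are annotated to the same transcript accession. The stretch of the transcript that each covers, and whether it lies in the deleted part, is unknown here, and neither probe settles the genotype of a mouse. The animals are therefore called by their labels, and mouse 3 is a mouse labelled MFP2-/- with -0.10 and 0.34 for its Hsd17b4 probes.

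**Figure D1:**
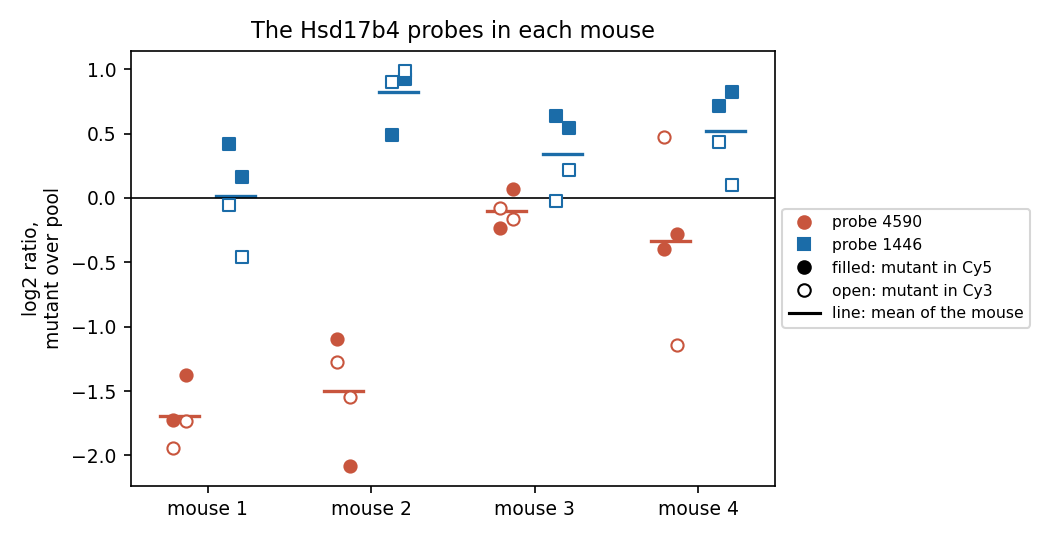
Log2 ratio of mutant over pool (vertical axis) for both Hsd17b4 probes in each of the 4 mice, with 1 point per array, filled for the mutant in Cy5 and open for the mutant in Cy3, and a line at the mean of the mouse. Probe 4590 sits below -1 on every array of mice 1 and 2 and around 0 in mouse 3, while probe 1446 lies above 0 on most arrays.

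Probe 4590 was also the 1 member called in the test between mice. That test sets the mice against the spread of repeat arrays of the same RNA, so its error is technical and it says nothing of the spread between animals of 1 group. Limma's F-test over mice, with a dye term on all 16 arrays, gave it an adjusted p of 0.0421 after Benjamini-Hochberg adjustment over 19775 probes, where 48 probes, 0.243%, were called. The call was narrow. The adjusted p was 0.0334 to 0.0779 over the alternatives that kept the direction of the ratios, and 3 of those 5 alternatives took it past 0.05. The SE of a mouse's value in this fit was 0.20. F-tests were also past an unadjusted p of 0.05 in 6 of the 8 members, against 11.4% of all probes. Scp2 came next with an adjusted p of 0.0692, then Eci3 with 0.108 and probe 1446 with 0.187.

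Neither entry gene passed the test against the pool, and both lay above 0 in 4 of 4 mice. Slc27a2 encodes a very long chain acyl-CoA synthetase of peroxisomes and endoplasmic reticulum, which activates the fatty acid. It had ratios of 0.27, 0.69, 0.18 and 0.48 in mice 1 to 4, a mean of 0.41 ± 0.23 (SD, n = 4), 1.32 times the pool (95% interval 1.12 to 1.56). All 16 arrays were above 0, from 0.005 to 0.88, the only member of which that held. It was also the member with the closest repeats. The SD between the arrays of 1 mouse in 1 orientation was 0.13, and 4.17% of probes had a repeat SD as small or smaller.

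Abcd3 encodes the peroxisomal half-transporter that takes branched and bile acid CoA esters across the membrane. The ratios were 0.18, 0.15, 0.40 and 0.19 in mice 1 to 4, a mean of 0.23 ± 0.11 (SD, n = 4), 1.17 times the pool (95% interval 1.04 to 1.32). The small spread between mice went with a wide spread between arrays, from -0.23 to 0.94 with 11 of 16 above 0. The repeat SD was 0.34, larger than in most probes. The mice differed from one another no more than arrays did (limma F-test adjusted p = 0.916).

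The thiolases carry out the last step, and the isomerase, an auxiliary enzyme of the cycle, is taken with them here. Acaa1a and Acaa1b are close copies that encode the peroxisomal thiolases for straight-chain substrates, and a cDNA probe of one may also bind RNA of the other. Acaa1a had 0.11, 0.63, 0.41 and 0.22 in mice 1 to 4, a mean of 0.34 ± 0.23 (SD, n = 4), 1.27 times the pool (95% interval 1.07 to 1.49). Acaa1b had 0.15, 0.01, 0.26 and 0.25 in mice 1 to 4, a mean of 0.17 ± 0.12 (SD, n = 4), 1.12 times the pool (95% interval 0.997 to 1.26). Mouse 2, with the highest Acaa1a ratio, thus had the lowest Acaa1b ratio. Neither probe was called between mice (limma F-test adjusted p = 0.388 for Acaa1a and 0.790 for Acaa1b). The arrays of mouse 2 for Acaa1b ran from -0.345 to 0.335. The Acaa1b mean was 0.03 with array repeat 1 alone and 0.30 with array repeat 2 alone. Both probes were above 0 on 13 of 16 arrays, Acaa1a between -0.21 and 0.90 with a median of 0.45, and Acaa1b between -0.34 and 0.69 with a median of 0.17.

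Scp2 encodes sterol carrier protein X, the thiolase for branched side chains and the partner of MFP2 in bile acid synthesis, as well as the shorter sterol carrier protein. The Scp2 probe had -0.04, 0.63, 0.03 and 0.18 in mice 1 to 4, a mean of 0.20 ± 0.30 (SD, n = 4), 1.15 times the pool (95% interval 0.936 to 1.41). The 4 arrays of mouse 2 carried this mean, and without mouse 2 it was 0.06. The Scp2 transcript that the probe reads is unknown here. Eci3, an enoyl-CoA isomerase of peroxisomes that prepares unsaturated chains for the cycle, had -0.06, 0.77, 0.25 and 0.52 in mice 1 to 4, a mean of 0.37 ± 0.35 (SD, n = 4), 1.29 times the pool (95% interval 1.02 to 1.63). Its mean was 0.24 without mouse 2. Eci2, a close copy of Eci3, had 0.20 ± 0.14 (SD, n = 4).

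**Figure D2:**
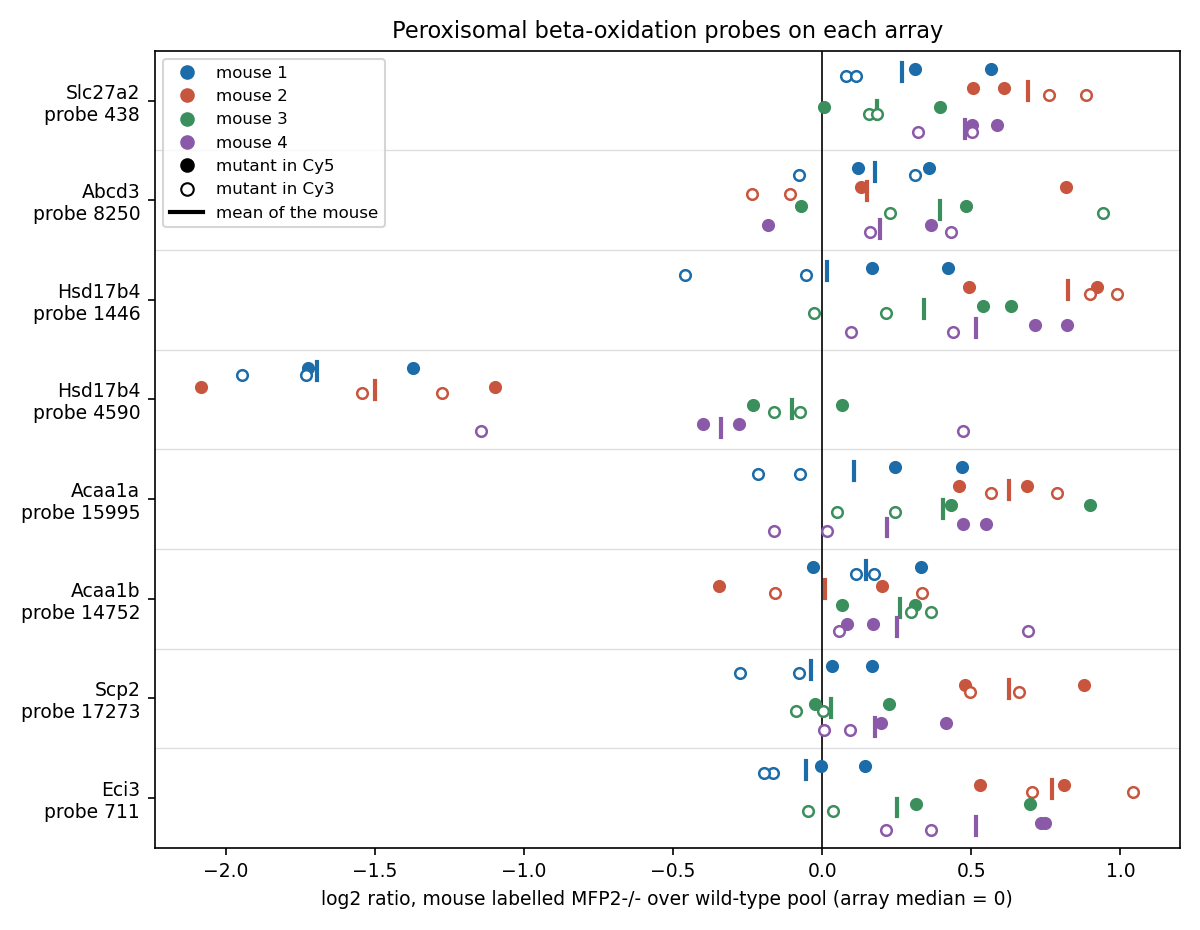
Log2 ratio of mutant over pool (horizontal axis, array median at 0) for the 8 member probes, 1 point per array, coloured by mouse, filled for the mutant in Cy5 and open for the mutant in Cy3, with a bar at the mean of each mouse. Slc27a2 lies above 0 on all 16 arrays, mouse 2 is far to the right for Scp2 and Eci3, and Hsd17b4 probe 4590 is split between mice 1 and 2 and mice 3 and 4.

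Across the set, 7 of 8 probes had a mean above 0, against 50.0% of all probes, and 0 passed limma's test against the pool after Benjamini-Hochberg adjustment, with adjusted p of 0.547 to 0.626. None of the 20187 probes tested passed either (0%), and the smallest adjusted p on the array was 0.284. At an unadjusted p under 0.05 the members counted 5 higher and 1 lower, where 5.83% of all probes were higher and 3.04% lower at that limit. Above 0 in 4 of 4 mice were 5 of the 8, against 10% of all probes measured in 4 mice, and 1 was below 0 in 4 of 4 mice, against 9.69%. The mean of probe 4590 was the 6th lowest of 20187 probes, and the 7 others stood between the 86.9th percentile for Acaa1b and the 98.2nd for Hsd17b4 probe 1446. These counts describe members that were chosen with earlier results of these data known. Nor are the probes independent of one another. Slc27a2, Hsd17b4 probe 1446, Acaa1a, Scp2 and Eci3 shared a profile over the arrays, with Pearson r of 0.63 to 0.87. The shares of all probes beside the counts, those of the F-test included, do not allow for that.

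**Figure D3:**
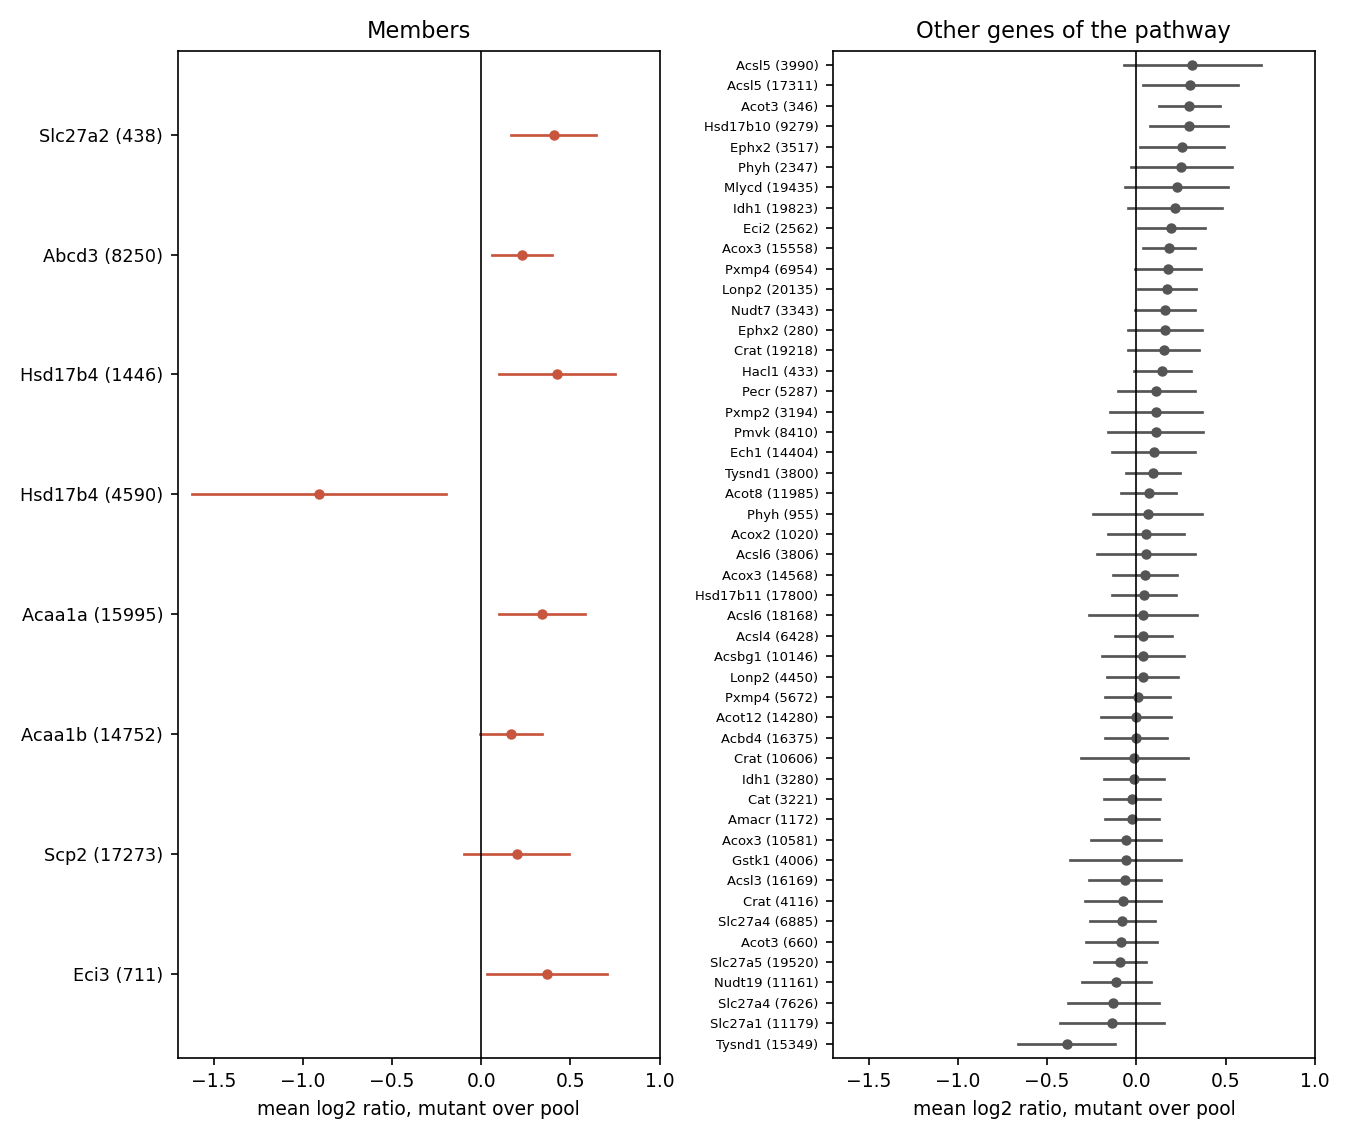
Mean log2 ratio of mutant over pool with its 95% interval from limma (n = 4 mice, 3 for Mlycd). Shown are the 8 member probes and, ordered by mean on the right, the 49 probes of other genes listed with the pathway. The intervals of 5 members lie above 0 and that of Hsd17b4 probe 4590 below it, before any adjustment for the number of probes, while most of the other probes have intervals that include 0.

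The upstream bases of 3 members are shown because Slc27a2 had the smallest SD between repeat arrays of the members, and Acaa1a and Acaa1b are close copies. Their mean ratios stood apart in mouse 2, though neither was called between mice. The sequences are the 250 bases before an annotated RefSeq start in GRCm38.p6, 5′ to 3′ on the gene's strand. Those of Slc27a2 are chr2:126552774-126553023 (plus strand), of Acaa1a chr9:119341044-119341293 (plus strand) and of Acaa1b chr9:119157094-119157343 (minus strand). The Acaa1a start used lies 266 bases inside the annotated gene, so another annotated transcript begins upstream of this window. Capitals mark AGGTCA, the half-site bound by PPAR and other nuclear receptors, in Slc27a2, and CCAAT, the box bound by nuclear factor Y, in both thiolase genes, each on either strand.
Slc27a2: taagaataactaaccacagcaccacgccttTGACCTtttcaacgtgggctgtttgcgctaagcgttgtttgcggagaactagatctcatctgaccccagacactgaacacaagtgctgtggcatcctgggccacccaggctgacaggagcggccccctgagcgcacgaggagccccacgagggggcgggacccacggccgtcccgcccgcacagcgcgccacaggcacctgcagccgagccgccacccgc
Acaa1a: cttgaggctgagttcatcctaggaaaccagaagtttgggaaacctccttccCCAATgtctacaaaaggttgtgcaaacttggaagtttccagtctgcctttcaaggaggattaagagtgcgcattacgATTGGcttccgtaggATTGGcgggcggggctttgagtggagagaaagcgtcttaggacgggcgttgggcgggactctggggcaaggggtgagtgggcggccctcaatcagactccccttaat
Acaa1b: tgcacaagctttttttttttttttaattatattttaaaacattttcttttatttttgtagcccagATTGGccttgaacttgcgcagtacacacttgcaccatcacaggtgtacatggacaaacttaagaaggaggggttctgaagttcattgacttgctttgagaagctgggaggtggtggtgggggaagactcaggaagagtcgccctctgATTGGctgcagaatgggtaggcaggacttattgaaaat

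Slc27a2 held AGGTCA once, on the opposite strand, at position -220 from the start, and Scp2 held it once as well. The Scp2 window begins at chr4:108118498, well inside the annotated gene (chr4:108043830-108144971). Its matches, GGGCGG included, therefore lie before an internal start and not at either end of the gene. Acaa1a, Acaa1b, Abcd3 and Eci3 held none in these windows. Of 32851 promoter windows of that length, 14% held it. The classical PPAR response element, AGGTCA repeated in 1 direction with any 1 base between, was found in none of the windows of the 6 members with one, and in 0.0335% of all windows. CCAAT occurred 3 times in Acaa1a and 2 times in Acaa1b, while 10.1% of all windows held at least 2 and 2.79% at least 3. Acaa1a also held GGGCGG, the GC box, 3 times, Slc27a2 2 times, Scp2 and Eci3 once each, and Acaa1b and Abcd3 0 times. Of all windows, 32.7% held it and 8.47% held it at least 3 times. Each motif was searched on both strands, that repeat contains AGGTCA, and a match is a description of letters.

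Members shared a profile over the arrays in part. After the mean of each dye orientation was taken off, Slc27a2, Hsd17b4 probe 1446, Acaa1a, Scp2 and Eci3 correlated with one another in all 10 pairs, with Pearson r of 0.63 to 0.87 over 16 arrays. Abcd3 and Acaa1b stood outside it, with r of -0.29 to 0.34 in the 13 pairs that involve either, and probe 4590 had r of -0.32 to 0.19 with the 6 probes of other genes. The division into these groups was made after the values were seen. The 16 arrays come from 4 mice, so the points share RNA.

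Mouse 2 made much of that likeness. Its arrays had the fewest probes with a value, and 55 to 71 floor values each, against 12 to 35 on the other arrays. The part of this in the likeness was not tested. Over the 12 arrays without mouse 2 the 10 pairs had r of -0.01 to 0.75 with a median of 0.47, against medians of 0.74 to 0.85 when another mouse was left out. Between repeats of 1 mouse in 1 orientation, where the RNA is the same, the 10 pairs still had r of 0.15 to 0.70 with a median of 0.48. Array-to-array variation that several probes share therefore moves with the profile, and its part in the result was not tested. The profile was also widely shared on the array. Of 12157 probes of other genes measured on all arrays, 4.38% to 8.05% reached an r of 0.63 or more with each of the 5 probes.

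**Figure D4:**
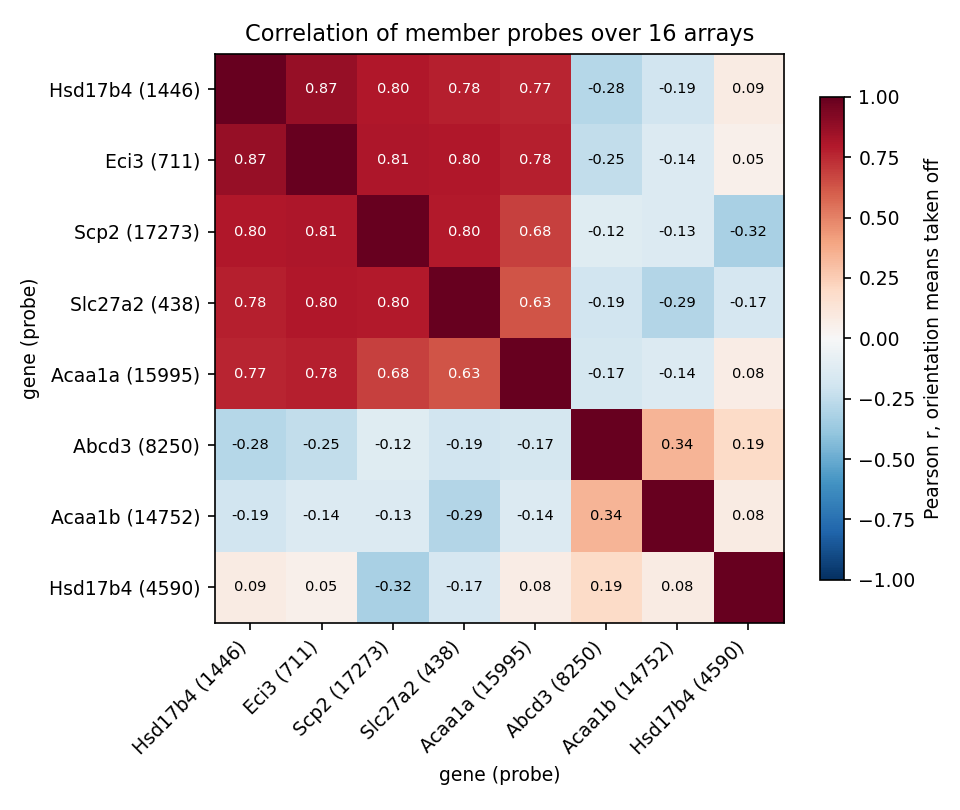
Pearson r between member probes over the 16 arrays after the mean of each dye orientation was taken off, on a colour scale from -1 to 1, with the same genes and probes on both axes. A block of 5 probes, Hsd17b4 probe 1446, Eci3, Scp2, Slc27a2 and Acaa1a, has r of 0.63 to 0.87, and Abcd3, Acaa1b and Hsd17b4 probe 4590 lie outside it.

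The probes of other genes most like probe 1446 were Rps24 (r = 0.95), a ribosomal protein, then Psmc6 (0.95), a proteasome subunit, Pfkp (0.95), Sem1 (0.94) and Wdr6 (0.93), over 16 arrays. Rps24 had -0.01, 0.75, 0.28 and 0.50 in mice 1 to 4, close to the values of probe 1446. For the mean of the 6 probes of other member genes the nearest were Sqstm1 (r = 0.94), the autophagy receptor p62, then Calm3, Ndufa1, Ran and Daglb with 0.88 to 0.89. Probe 4590 had a looser set, led by Bcl11a (r = 0.86), with Elavl3, Ppm1f, Tmem269 and Cmtr1 at 0.75 to 0.76. Bcl11a had -0.21, -0.24, 0.17 and 0.06 in mice 1 to 4, so it shared the division of the mice at a much smaller size.

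Dye orientation touched some members more than others. Acaa1a averaged 0.53 where the mutant was in Cy5 and 0.15 where it was in Cy3, a difference of 0.37 ± 0.12 (SE), with a limma adjusted p of 0.0578. Hsd17b4 probe 1446 had 0.59 and 0.26 in the same order (limma adjusted p = 0.114), Scp2 had 0.30 and 0.10 (limma adjusted p = 0.151), and Eci3 had 0.50 and 0.24 (limma adjusted p = 0.155). Acaa1b went the other way, with 0.10 and 0.23 (limma adjusted p = 0.467). No member passed the adjusted test for orientation, where 8.45% of all probes did, and 4 of 8 had an unadjusted p under 0.05, against 30.0% of all probes. Slc27a2, with 0.44 and 0.38, Abcd3, with 0.25 and 0.21, and probe 4590, with -0.89 and -0.92, read alike in both orientations to within the SE of the difference. Means over mice weight both orientations equally.

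The other genes listed with the pathway were spread on both sides of 0. The list held 54 genes, written with earlier results known, of which 35 genes with 49 probes were tested. It reached beyond the enzymes of peroxisomal beta-oxidation, with Pmvk, Idh1, Ephx2 and the mitochondrial Hsd17b10 among its genes. The 8 members had a median of 0.28, these 49 probes 0.05 and all probes 0.00. Means were above 0 in 32 of the 49 probes, against 50.0% of all probes, and below 0 in 17, and 0 passed limma's adjusted test. At an unadjusted p under 0.05, 7 of the 49 were higher and 1 lower, where 5.83% of all probes were higher and 3.04% lower. Hsd17b10 and Ephx2 probe 3517 were among those 7. The median of the list was 0.03 without mouse 2 and 0.03 without mouse 4.

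Among the acyl-CoA oxidases, the step before MFP2, Acox3 probe 15558 had 0.18 ± 0.05 (SD, n = 4) and its other probes 0.05 ± 0.13 and -0.06 ± 0.16. Acox2, the oxidase for bile acid intermediates, had 0.06 ± 0.19. Acot3, a peroxisomal acyl-CoA thioesterase, had 0.30 ± 0.12 with 1 probe and -0.08 ± 0.16 with the other. Acsl5, a long chain acyl-CoA synthetase, had 0.30 ± 0.26 and 0.31 ± 0.41, and Hsd17b10, a mitochondrial hydroxyacyl-CoA dehydrogenase, had 0.30 ± 0.20. On the lower side, Tysnd1, the protease that cleaves MFP2, Scp2 and thiolase after import, had -0.39 ± 0.27 with probe 15349 and 0.10 ± 0.07 with probe 3800. The others with the smallest p below 0 were Slc27a5 (-0.09 ± 0.05), Nudt19 (-0.11 ± 0.16) and Slc27a4 (-0.13 ± 0.25). Catalase, the marker enzyme of peroxisomes that removes their hydrogen peroxide, had -0.03 ± 0.08, and Amacr, the racemase that hands branched substrates to this pathway, had -0.03 ± 0.07 (SD, n = 4 each).

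Targets of PPAR alpha outside the peroxisome were set beside the members as a list of 30 genes, of which 15 with 19 probes were tested. Their median was 0.10, with 12 of the 19 probes above 0, against 50.0% of all probes. At an unadjusted p under 0.05 the count was 5 higher and 0 lower, where 5.83% of all probes were higher and 3.04% lower. The median was 0.02 without mouse 2 and 0.05 without mouse 4. No probe passed the adjusted test. Slc22a5, the carnitine transporter, had 0.29 ± 0.03 (SD, n = 4), Etfdh 0.34 ± 0.17, Acaa2, a mitochondrial thiolase, 0.29 ± 0.19 and Hadha, of the mitochondrial trifunctional protein, 0.23 ± 0.15. Of the 7 probes below 0, those with the smallest p were Cidea (-0.14 ± 0.09), Fabp3 (-0.07 ± 0.12), Plin2 (-0.09 ± 0.22) and Angptl4 (-0.05 ± 0.17), none with an unadjusted p under 0.05. The list medians were 0.01, 0.32, 0.12 and 0.10 in mice 1 to 4, highest in mouse 2, as in 5 of the 8 member probes, where 31.4% of all probes were highest in that mouse.

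Markers of the nephron and of other cells were read in the same mice. The member medians were 0.06, 0.63, 0.26 and 0.23 in mice 1 to 4. The 23 probes of 20 proximal tubule markers tested, out of 31 listed, had medians of -0.12, 0.17, -0.08 and 0.15, so mouse 1 was the lowest and mouse 2 the highest for both. Over the mice, 15 of those 23 probes were above 0, against 50.0% of all probes, with means from -0.20 to 0.66 and a median of 0.02. The 13 probes of thick limb, distal and collecting duct markers had medians of 0.20, 0.17, 0.18 and 0.21. Blood and immune markers (18 probes) had -0.20, -0.10, -0.18 and 0.01, endothelial and stromal markers (16 probes) -0.16, -0.01, -0.07 and 0.02, and podocyte markers (2 probes) 0.12, 0.04, -0.08 and 0.15. At a limma unadjusted p under 0.05, the proximal tubule probes counted 5 higher and 2 lower. Thick limb, distal and collecting duct probes counted 6 higher and 0 lower, and blood and immune probes 1 higher and 5 lower. Endothelial and stromal probes counted 1 higher and 4 lower, and podocyte probes 0 either way. Of all probes, 5.83% were higher and 3.04% lower at that limit. The part of cell composition in the member ratios was not tested.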

How the data were processed

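The deposited values are log2 ratios of the 2 channels per probe, 1 column per array, made by the authors; log2 was inferred from the values. The sources used here give neither background correction nor normalisation. Dyes and channels are per the labels. Array medians were -0.149 to 0.098 as deposited. Values of absolute size over 10 (12 to 71 spots an array) were set to missing and each array was centred on its median. Arrays were averaged within each dye orientation and then over both, giving 1 value per mouse. A probe needed 3 mice. Platform symbols were updated through a RefSeq table (GRCm38.p6); of 20355 probes 14030 had 1 symbol, 5 several and 6320 none.

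Each probe's 4 mouse values were set against 0 in limma 3.58.1 (R 4.3.3, two-sided moderated test), and p-values were adjusted by Benjamini-Hochberg over all probes, with calls at 0.05. Differences between mice and the dye term were tested with limma on 16 arrays, on probes with both orientations in every mouse. The spread among wild-type animals is left out. Scripts were tested on simulated data. Alternatives covered centring, scaling, missing values, orientation, repeats, the prior, direction and each mouse left out. The members, lists and tests were chosen with earlier results of these data known. Named genes were all member probes, the 4 smallest p in each direction of the pathway and PPAR alpha lists, and the 5 probes most like each profile; Eci2, catalase, Amacr, Acox2 and the remaining Acox3, Acot3, Acsl5 and Tysnd1 probes were added after their values were seen. Array titles and source names give mouse 1 different numbers; its arrays were joined by the mouse ID. Limma's duplicateCorrelation used statmod 1.5.0.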

Additional observations from a re-analysis of the deposited data

Results flagged for a closer look

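Hsd17b4 probe 4590 was the 1 member called for a difference between mice (limma F-test with Benjamini-Hochberg adjustment, adjusted p = 0.0421), with ratios of -1.69, -1.50, -0.10 and -0.34 in mice 1 to 4. No member had a mouse, or an array among the 4 of a mouse, beyond Dixon's 95% limit for an outlier (0 of 40 groups of 4), where chance gives about 1 in 20.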

How the results depend on the processing

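Over 19 alternatives, 149 of 152 member values kept their direction. Part of that count was fixed in advance. A robust prior, an unmoderated test and the mouse as a random effect left every member mean as it was. So did taking probes in at least 2 mice or on all 16 arrays. Averaging the probes of a gene could change Hsd17b4 alone. Hsd17b4 probe 1446 had -0.24 when both probes of the gene were averaged. With values read as Cy5 over Cy3, probe 4590 had 0.0174, Acaa1b -0.0676 and the entry step a median of 0.03, against 0.32. Against the pool, 0 probes were called in limma under 15 alternatives, 3 with the mutant in Cy5 alone, 2 with it in Cy3 alone (2 higher), 13 read as Cy5 over Cy3, and 291 (239 higher) with all arrays and the mouse as a random effect (estimated correlation within mice 0.038, so that arrays weigh nearly as samples). That last fit called 291 of the 20187 probes tested and 4 of the 8 member probes. These were Slc27a2 (limma adjusted p = 0.00890), probe 4590 (0.0326), Acaa1a (0.0352) and probe 1446 (0.0388). The median of the other genes listed with the pathway was 0.10 with the mutant in Cy5 alone. Between mice, 48 probes became 21 with arrays scaled to 1 spread and 2 read as Cy5 over Cy3. The call of probe 4590 was lost, leaving 0 members, without centring (adjusted p = 0.0566), with scaling (0.0779), with floor spots kept (0.0513) and read as Cy5 over Cy3 (0.996). For orientation, 1671 of the 19775 probes tested became 3627 without centring and 335 read as Cy5 over Cy3. Each of those alternatives called 4 of the 8 member probes. Without 1 mouse, member means ran from 0.31 to 0.48 for Slc27a2, 0.17 to 0.26 for Abcd3, 0.29 to 0.56 for probe 1446, -1.18 to -0.65 for probe 4590, 0.24 to 0.42 for Acaa1a, 0.14 to 0.22 for Acaa1b, 0.06 to 0.28 for Scp2 and 0.24 to 0.51 for Eci3. No paired analysis was possible because there is 1 group and the pool is on every array. Signal over background is unknown.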
